A study of Mus musculus with 6 samples.

Results

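The glycolysis, glucose and pyruvate genes are 38 mouse genes, given as a list of symbols. They carry glucose into the cell, break it down to pyruvate and lactate, and direct pyruvate to oxidation or carboxylation. They were read from a table of Affymetrix Mouse430_2 expression arrays through the probe sets paired with 1 of these symbols alone. Of the 38 genes, 35 had such a probe set, out of 18194 genes measured this way in the series. Glucose phosphate isomerase (Gpi1), alpha-enolase (Eno1) and the kinase and phosphatase Pfkfb1 were not measured here. Where a gene had several such probe sets, the one brightest on average across the 6 arrays stands for it.

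Glycolysis splits glucose into pyruvate in the cytoplasm and yields ATP without oxygen. Red blood cells lose their mitochondria as they mature and then depend on it, and they divert part of the flux to 2,3-bisphosphoglycerate, which lowers the oxygen affinity of haemoglobin. Pyruvate is either reduced to lactate, oxidised by the pyruvate dehydrogenase complex, or carboxylated to oxaloacetate by pyruvate carboxylase.

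The RNA came from Ter119-positive cells of the fetal liver at embryonic day 14.5, Ter119 being a surface antigen of maturing red cell precursors. The comparison is between 3 wild type pools and 3 STAT5 knockout pools, with 3 to 5 embryos of 1 genotype in a pool and 1 pool on an array. STAT5 is the transcription factor pair STAT5A and STAT5B, which the erythropoietin receptor activates. The labels give neither the strain nor the knockout allele, and no Cre or transgene is named for any group. All embryos were untreated as far as the labels say.

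The 4 probe sets of Stat5a and Stat5b were lower in every knockout array than in every wild type array. The brightest Stat5a probe set had a mean log2 signal of 8.54 in wild type and 7.10 in knockout, and the brightest Stat5b probe set 9.09 and 7.79. The labels do not say whether these probe sets lie inside the deleted part. Median signals of the arrays ranged from 175.6 to 215.8. A signal of 162.5, or 7.34 on the log2 scale, exceeds 95% of the values of 27 bacterial control probe sets and is called the control level here. Red cell genes were present: Slc4a1, the anion exchanger of the red cell membrane, had a mean log2 signal of 15.82 in wild type and 15.60 in knockout. The hepatocyte gene Alb, for albumin, was also bright, with log2 signals of 15.85, 16.02 and 15.49 in wild type and 15.25, 15.46 and 15.37 in knockout. In RNA from a pool of cells, fewer cells of a type and less RNA per cell cannot be told apart.

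Promoter sequences are shown for 5 of the genes whose signals are described most closely below: the glucose transporter gene Slc2a1, the hexokinase gene Hk2, the ATP-yielding kinase gene Pgk1, the lactate dehydrogenase gene Ldha and the pyruvate carboxylase gene Pcx. They are the 250 bases before a transcription start in RefSeq, on the GRCm38.p6 build, read 5′ to 3′ on the strand of the gene. Slc2a1 lies on the plus strand at chr4:119108495-119108744, Hk2 on the minus strand at chr6:82774455-82774704, Pgk1 on the plus strand at chrX:106186850-106187099, Ldha on the plus strand at chr7:46845554-46845803 and Pcx on the plus strand at chr19:4510222-4510471. Capitals mark ACGTG, the core of the element through which hypoxia-inducible factors act, or its reverse complement CACGT.
Slc2a1: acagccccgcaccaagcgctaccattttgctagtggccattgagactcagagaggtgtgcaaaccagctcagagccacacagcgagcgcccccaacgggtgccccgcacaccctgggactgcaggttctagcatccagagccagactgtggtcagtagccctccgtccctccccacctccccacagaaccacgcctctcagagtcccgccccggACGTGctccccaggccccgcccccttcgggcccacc
Hk2: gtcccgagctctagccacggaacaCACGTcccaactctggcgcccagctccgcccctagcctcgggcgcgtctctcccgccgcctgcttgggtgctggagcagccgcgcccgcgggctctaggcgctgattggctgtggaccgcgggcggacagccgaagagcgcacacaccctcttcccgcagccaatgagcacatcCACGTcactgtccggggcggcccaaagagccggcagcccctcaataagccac
Pgk1: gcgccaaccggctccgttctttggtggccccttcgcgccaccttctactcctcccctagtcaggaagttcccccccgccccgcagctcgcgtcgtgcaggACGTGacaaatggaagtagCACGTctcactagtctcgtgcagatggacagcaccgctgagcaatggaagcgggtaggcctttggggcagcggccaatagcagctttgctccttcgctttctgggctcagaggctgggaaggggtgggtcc
Ldha: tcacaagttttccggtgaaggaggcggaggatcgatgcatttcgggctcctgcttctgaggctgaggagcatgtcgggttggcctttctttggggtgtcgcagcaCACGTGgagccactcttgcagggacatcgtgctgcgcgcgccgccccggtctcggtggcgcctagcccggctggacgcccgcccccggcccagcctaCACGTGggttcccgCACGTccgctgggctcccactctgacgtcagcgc
Pcx: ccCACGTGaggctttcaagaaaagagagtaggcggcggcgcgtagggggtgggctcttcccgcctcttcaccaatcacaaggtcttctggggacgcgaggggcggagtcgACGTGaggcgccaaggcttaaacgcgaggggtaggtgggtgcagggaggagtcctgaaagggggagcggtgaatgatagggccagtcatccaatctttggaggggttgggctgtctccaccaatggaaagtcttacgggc

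Slc2a1 holds 1 match to ACGTG on either strand, Hk2 and Pgk1 2 each, Pcx 3 and Ldha 5. For Ldha and Pcx, which have 2 starts each in the table, the upstream start is shown, and the window of the other held 0 matches. Where the capitals spell CACGTG, the E-box that MYC and USF proteins can bind, the core is read on both strands and counts as 2 matches. Windows of 250 bases before to 50 bases after a start were available for 37 of the 38 genes. ACGTG was found in the window of 20 of these 37 genes, against 21.8% of the 27025 genes in the table. Counted by window, since a gene can have several starts, it was in 41.4% of the genes' 58 windows and in 19.6% of all 32851 windows. CACGTG was in a window of 7 of the 37 genes, against 8.09% of all genes. The erythroid motif AGATAA was found in 7 as well, against 12.7% of all genes. TTCNNNGAA, the palindrome that STAT5 dimers can bind, was in a window of 2 of the 37 genes, Aldoc and Pfkm, against 9.55% of all genes. All motifs were searched on both strands, and a match is only a stretch of letters.

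None of the 35 measured genes passed the test between genotypes. The test was limma on log2 signal with Benjamini-Hochberg adjustment over all 18194 genes and a threshold of 0.05, which called 8 genes, 0.044% of those tested. The same test with a mean-variance trend, which lets dim genes vary more, called 80 genes, 0.44%, and again none of the 35. With the replicate number as a block limma called 0 genes, with 1566 at an unadjusted p under 0.05. The smallest adjusted p was that of Pcx, at 0.51 in limma and 0.126 with the trend. Before adjustment, limma gave a p under 0.05 for 3 of the 35 genes, Hk2, Pdk2 and Pcx, and for 8.9% of all genes. The fit with the trend gave one for 8, adding Slc2a1, Slc16a3, Aldoa, Pkm and Pdk1, and for 11.0% of all genes. Every difference below is therefore a measured value and not a call.

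The genes lay on either side of 0. The log2 difference, knockout minus wild type, was above 0 for 20 genes and below 0 for 15, with a median of 0.04 against -0.08 over all genes. After median centring of the arrays, 24 of the 35 were above 0, and the median over all genes was 0.03. In 5 genes, Hk2, Aldoa, Pdk1, Pdk2 and Pgam2, every knockout array was above every wild type array, which held for 7.02% of all genes. In 2 genes, Slc2a1 and Pcx, every knockout array was below every wild type array, which held for 9.85% of all genes. With 3 arrays a group, the smallest p of an exact two-sided permutation test on a gene is 0.1. In at least 1 genotype, 32 of the 35 had a mean above the control level. Pgam2, Eno2 and Pdk4 were under it in both, so no fold is given for them.

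**Figure D1:**
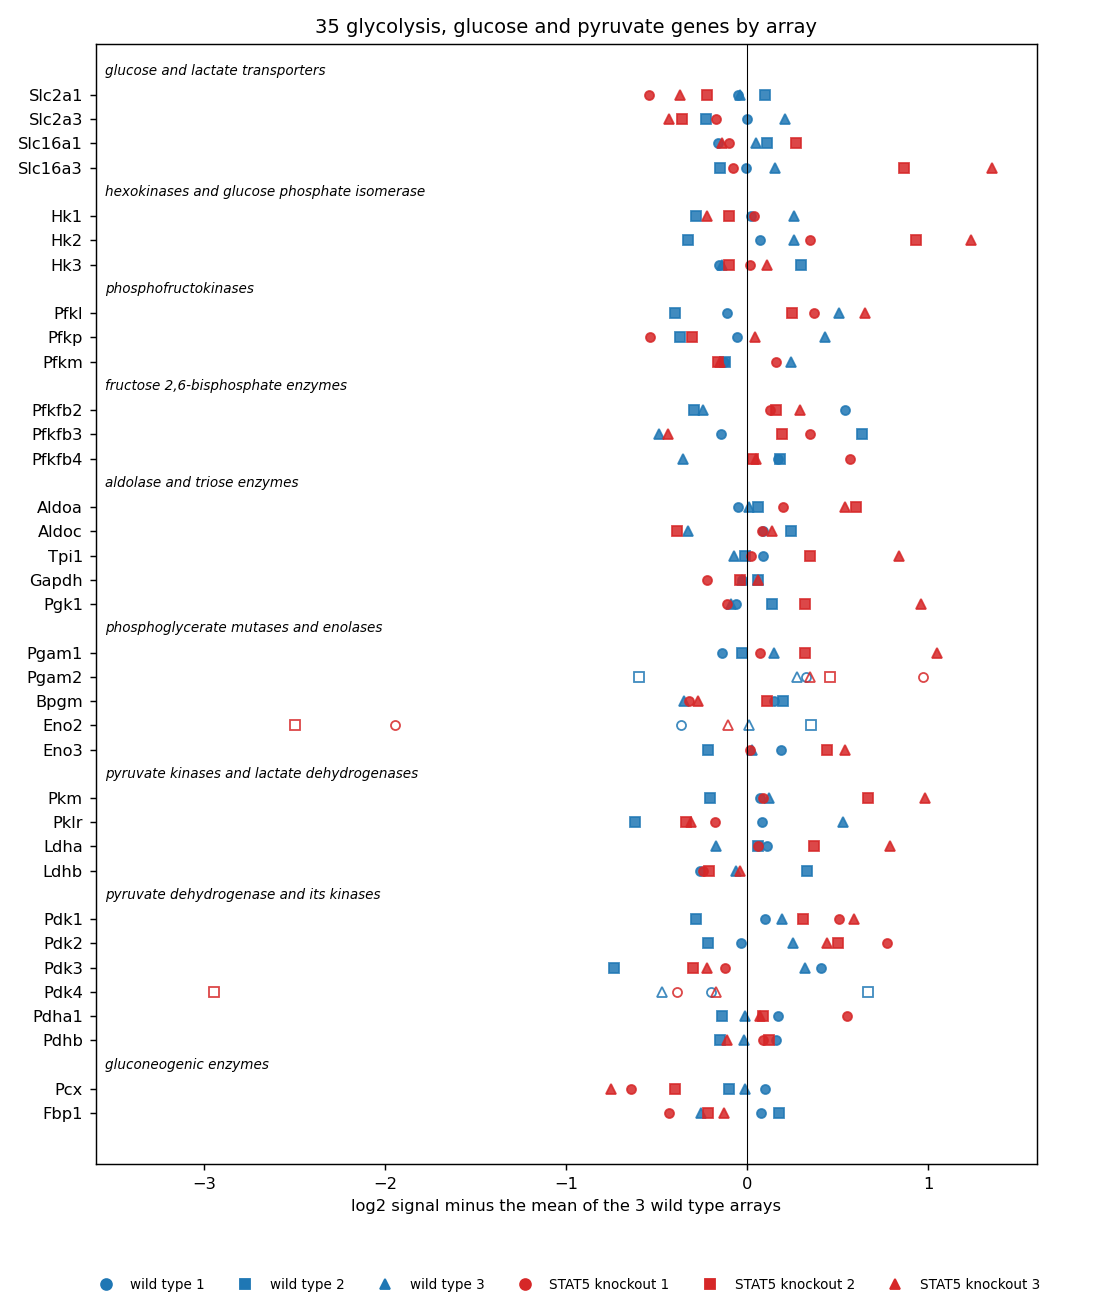
Log2 signal of each of the 35 measured genes on each array, less the mean of the 3 wild type arrays, with genes grouped by role. Blue marks are wild type arrays, red marks are STAT5 knockout arrays, the shape gives the replicate, and open marks are genes under the control level in both genotypes. For Slc16a3, Tpi1, Pgk1, Pgam1, Pkm and Ldha, the third knockout array is highest and the first lies within or next to the wild type arrays.

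Among the transporters, the glucose carriers were lower in knockout and a lactate carrier was higher, none past the test. Slc2a1 encodes GLUT1, a high-affinity glucose transporter. Its log2 signal was 15.51, 15.66 and 15.52 in the wild type arrays and 15.02, 15.34 and 15.19 in the knockout arrays. The groups did not overlap, and the highest knockout array was the second. The difference was -0.38 (SE 0.18, n = 3 and 3), or 1.30-fold more in wild type, with an adjusted p of 0.586 in limma. All 3 Slc2a1 probe sets put every knockout array below every wild type array, with log2 differences of -0.38, -0.55 and -0.47. After quantile normalization the difference was -0.33, and after median centring -0.27.

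Slc2a3, the gene of the glucose transporter GLUT3, had log2 signals of 10.86, 10.63 and 11.07 in wild type and 10.69, 10.50 and 10.43 in knockout. The first knockout array lay above the lowest wild type array, so the groups overlapped, and the difference was -0.32 (SE 0.20). A dimmer Slc2a3 probe set above the control level differed by -0.54, also with overlap. Slc16a1 encodes MCT1, which carries lactate and pyruvate with a proton. It had log2 signals of 13.67, 13.94 and 13.88 in wild type and 13.73, 14.10 and 13.69 in knockout, a difference of 0.01 (SE 0.20).

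Slc16a3 encodes MCT4, the lactate exporter of strongly glycolytic cells. Its log2 signal was 9.02, 8.87 and 9.18 in wild type and 8.95, 9.89 and 10.38 in knockout. The second knockout array and the third stood above all others, while the first lay among the wild type arrays. The difference was 0.71 (SE 0.38), or 1.64-fold, with an adjusted p of 0.619 in limma.

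Hexokinases trap glucose in the cell as glucose 6-phosphate. Hk2, the inducible isozyme that binds mitochondria, had log2 signals of 8.55, 8.15 and 8.73 in wild type and 8.83, 9.41 and 9.71 in knockout. The groups did not overlap, though the first knockout array was close to the third wild type array. Hk2 had the largest positive difference of the 35 genes, 0.84 (SE 0.30), or 1.79-fold, with an adjusted p of 0.536 in limma. Only 1 probe set measures it.

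Hk1, the widely expressed isozyme, had log2 signals of 12.79, 12.49 and 13.03 in wild type and 12.81, 12.67 and 12.55 in knockout. Its difference was -0.09 (SE 0.21), turned to 0.02 by median centring, and a dimmer probe set differed by 0.02. Hk3, an isozyme of white blood cells, differed by 0.01 (SE 0.20), or by -0.03 after quantile normalization. Its dimmer probe set, some of whose probes match other sequences, differed by 0.57. There the log2 signals were 8.01, 8.95 and 8.59 in wild type against 9.16, 8.95 and 9.16 in knockout. These groups were separate, but the gap between them was small.

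Phosphofructokinase commits the sugar to glycolysis. Pfkl, its liver-type subunit, had log2 signals of 12.02, 11.73 and 12.64 in wild type and 12.50, 12.38 and 12.78 in knockout. The third wild type array stood among the knockout arrays, and the difference was 0.42 (SE 0.29). The other Pfkl probe sets differed by 0.28 and 0.01. Pfkp, the platelet-type subunit, differed by -0.27 (SE 0.28). Pfkm, the muscle-type subunit, differed by -0.05 (SE 0.20) on the deposited scale and by 0.07 after median centring.

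The bifunctional Pfkfb enzymes make and remove fructose 2,6-bisphosphate, the main activator of phosphofructokinase. Pfkfb2 differed by 0.19 (SE 0.27), Pfkfb3 by 0.04 (SE 0.37) and Pfkfb4 by 0.22 (SE 0.26), all log2 differences smaller than their SE. For Pfkfb3 the wild type arrays alone spanned 1.12 log2 units, from 6.92 to 8.05. Using the mean of all probe sets turned Pfkfb2 to -0.21 and Pfkfb3 to -0.08.

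The enzymes from aldolase to phosphoglycerate kinase had a median log2 difference of 0.39 over the 5 genes measured. Aldoa encodes aldolase A, which splits fructose 1,6-bisphosphate. It had log2 signals of 12.17, 12.28 and 12.23 in wild type and 12.42, 12.82 and 12.76 in knockout. All 3 knockout arrays were above all 3 wild type arrays, by 0.44 (SE 0.19) on average, or 1.36-fold, with an adjusted p of 0.568 in limma.

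The other 4 Aldoa probe sets gave larger log2 differences, of 1.09, 1.07, 1.14 and 1.23, each with every knockout array above every wild type array. The brightest of these 4, for example, had log2 signals of 11.95, 11.63 and 11.68 in wild type and 12.27, 12.81 and 13.46 in knockout. In all 4 the third knockout array was highest and the first lowest of the knockout arrays. All 5 Aldoa probe sets carry the suffix _x_at, meaning that some of their probes match other sequences too. Aldoc, the brain-type aldolase, differed by -0.06 (SE 0.25), or by 0.06 after median centring.

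Tpi1 encodes triosephosphate isomerase, which interconverts the triose phosphates. It had log2 signals of 12.52, 12.42 and 12.36 in wild type and 12.45, 12.78 and 13.27 in knockout. Only the first knockout array lay within the wild type range, and the difference was 0.40 (SE 0.25), or 1.32-fold. The other Tpi1 probe sets differed by 0.38, again with the first knockout array level with a wild type array, and by 0.73, with no overlap.

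Gapdh, the gene of glyceraldehyde 3-phosphate dehydrogenase, is measured only by the array's own control probe sets. The brightest had log2 signals of 14.50, 14.59 and 14.50 in wild type and 14.31, 14.49 and 14.59 in knockout. That is a difference of -0.06 (SE 0.17), turned to 0.05 by median centring. Its other probe sets differed by 0.12 and 0.10, so no direction can be given for Gapdh.

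Pgk1 encodes phosphoglycerate kinase, which makes the first ATP of the pathway. It had log2 signals of 13.10, 13.30 and 13.07 in wild type and 13.05, 13.48 and 14.12 in knockout. The first knockout array was the lowest of all 6 and the third the highest. The difference of 0.39 (SE 0.30), or 1.31-fold, was thus carried by 2 of the 3 knockout arrays. The other Pgk1 probe sets differed by 0.63 and 0.66 with the same order among the knockout arrays.

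**Figure D2:**
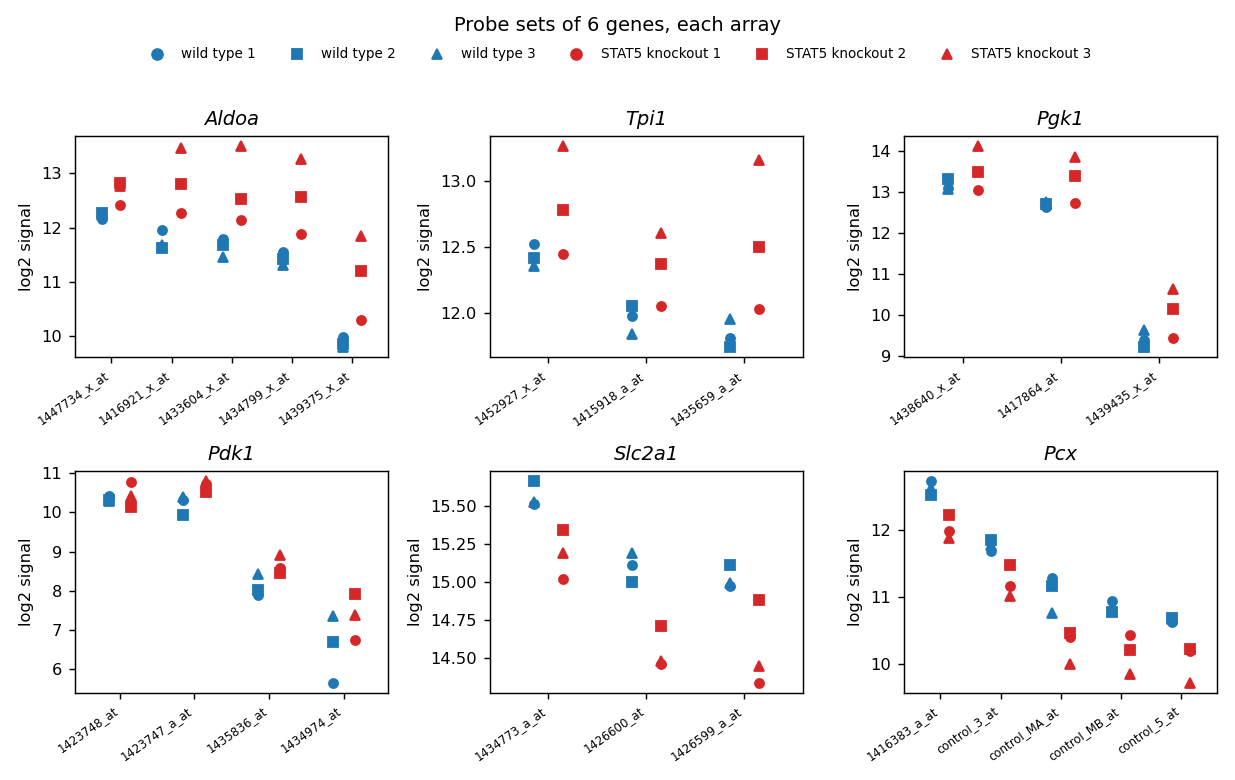
Log2 signal of each probe set above the control level on each array, for Aldoa, Tpi1, Pgk1, Pdk1, Slc2a1 and Pcx, each with a vertical axis of its own that does not start at 0. Blue marks are wild type and red marks STAT5 knockout arrays, the shape gives the replicate, and for Pcx the labels starting with control are the array's own control probe sets. All 5 Pcx and all 3 Slc2a1 probe sets have the knockout arrays below the wild type arrays, and all 5 Aldoa probe sets have them above.

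Phosphoglycerate mutase and enolase convert the product of Pgk1 to phosphoenolpyruvate. Pgam1, the widely expressed mutase, had log2 signals of 11.24, 11.35 and 11.53 in wild type and 11.45, 11.70 and 12.43 in knockout. The first knockout array fell inside the wild type range and the third stood well above the second. The difference was 0.48 (SE 0.30), or 1.40-fold, with an adjusted p of 0.645 in limma.

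Bpgm encodes bisphosphoglycerate mutase, the red cell enzyme that makes 2,3-bisphosphoglycerate. Its log2 signal was 15.27, 15.32 and 14.77 in wild type and 14.80, 15.23 and 14.85 in knockout. The groups overlapped, with 1 wild type and 2 knockout arrays near their lower end, and the difference was -0.16 (SE 0.24). Its other probe sets differed by -0.12 and -0.15.

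Eno3, the muscle-type enolase, had log2 signals of 8.69, 8.28 and 8.53 in wild type and 8.51, 8.94 and 9.04 in knockout, a difference of 0.33 (SE 0.23). The muscle-type mutase Pgam2 and the neuronal enolase Eno2 stayed under the control level in both genotypes. Pgam2 had log2 signals of 6.36, 5.43 and 6.31 in wild type and 7.0, 6.49 and 6.38 in knockout. These groups did not overlap, but the differences of 0.59 for Pgam2 and -1.51 for Eno2 measure dim signal only. The muscle genes of a fixed marker list had summed signals of 905.6 to 1156 in wild type and 660 to 907.1 in knockout.

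Pyruvate kinase makes the second ATP and pyruvate. Pkm, whose product includes the M2 form of dividing cells, had log2 signals of 10.25, 9.98 and 10.30 in wild type and 10.27, 10.85 and 11.16 in knockout. The first knockout array was level with the wild type arrays and the other knockout arrays were above them all. The difference was 0.58 (SE 0.28), or 1.50-fold, with an adjusted p of 0.586 in limma.

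Pklr, which gives the pyruvate kinase of red cells and liver, had log2 signals of 12.61, 11.91 and 13.06 in wild type and 12.35, 12.19 and 12.22 in knockout. The wild type arrays spanned 1.15 log2 units and enclosed all 3 knockout arrays. The difference was -0.28 (SE 0.32), and the other Pklr probe sets differed by -0.20 and -0.07. The red cell isozyme was thus below 0 and Pkm above 0, and neither difference passed the test.

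Ldha encodes the lactate dehydrogenase subunit that favours lactate. Log2 signals were 13.10, 13.05 and 12.82 in wild type and 13.05, 13.36 and 13.78 in knockout. The third knockout array was highest and the first lay among the wild type arrays, for a difference of 0.41 (SE 0.24), or 1.32-fold. Ldhb, the subunit of oxidative tissues, differed by -0.17 (SE 0.22). Its other probe sets above the control level differed by -0.28 and 0.22, and with the mean of all its probe sets the difference was 0.01.

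Pyruvate dehydrogenase kinases switch off the complex that sends pyruvate into the citric acid cycle. Pdk1, a target of hypoxia-inducible factor, had log2 signals of 10.31, 9.93 and 10.40 in wild type and 10.72, 10.52 and 10.80 in knockout. Here the first knockout array was not apart from the others, and the groups did not overlap. The difference was 0.46 (SE 0.21), or 1.38-fold, with an adjusted p of 0.576 in limma. The other 3 Pdk1 probe sets differed by 0.10, 0.52 and 0.79, and only that of 0.52 had separate groups.

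Pdk2, the most widely expressed of the kinases, had log2 signals of 8.89, 8.71 and 9.18 in wild type and 9.70, 9.43 and 9.37 in knockout. Its highest array was the first knockout array, and the groups did not overlap. The difference was 0.57 (SE 0.21), or 1.49-fold, with an adjusted p of 0.547 in limma. In every alternative tried it stayed between 0.46 and 0.70.

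Pdk3 differed by -0.21 (SE 0.34), with the second wild type array lowest of all 6. Pdk4, the kinase induced by fasting, was under the control level in both genotypes. Subunits of the complex itself had small differences. Pdha1, the E1 alpha subunit, differed by 0.23 (SE 0.22) and Pdhb, the E1 beta subunit, by 0.04 (SE 0.18). A dim second Pdhb probe set differed by -0.76, from 7.84, 8.0 and 7.85 in wild type to 7.51, 6.44 and 7.45 in knockout. It thus opposed the bright one.

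Pcx encodes pyruvate carboxylase, the mitochondrial enzyme that makes oxaloacetate from pyruvate and starts gluconeogenesis. Log2 signals were 12.73, 12.53 and 12.62 in wild type and 11.99, 12.23 and 11.88 in knockout. The groups did not overlap, and the second knockout array was the closest to wild type. The difference was -0.59 (SE 0.18), or 1.51-fold more in wild type, with an adjusted p of 0.51 in limma and 0.126 with the trend.

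All 5 Pcx probe sets, 4 of them control probe sets of the array, had every knockout array below every wild type array, with log2 differences between -0.55 and -0.79. Fbp1, fructose bisphosphatase, opposes phosphofructokinase in liver. It had log2 signals of 8.68, 8.78 and 8.35 in wild type and 8.17, 8.39 and 8.47 in knockout, a difference of -0.26 (SE 0.20) with overlapping groups.

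Markers of hepatocytes were also lower in knockout, none past the test. All 14 measured hepatocyte markers were below 0, with a median log2 difference of -0.69. In 10 of the 14 knockout was wholly below wild type, against 9.85% of all genes. The summed signal of the 14 was 207300, 285200 and 165300 in wild type and 140800, 150100 and 152200 in knockout. None of the 14 was under the control level in both genotypes. The part of hepatocyte RNA in the Pcx and Fbp1 differences was not tested.

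The submitters chose genes by an unadjusted p under 0.05 in Partek and a change of over 1.5-fold. Of the 78 probe sets of the 35 genes, 6 met this: 2 of Aldoa, higher in knockout, and 4 of Pcx, lower. Over all 34958 probe sets with 1 gene, 2.29% met it in the higher direction and 2.97% in the lower. Without the first knockout array 12 of the 78 met it, 10 of them higher, where 1.93% of all probe sets did. Both Aldoa calls were gone without the first wild type array, where 1 probe set was lower, and without the second knockout array, where 6 were lower. Without the second wild type array 1 was higher and 2 lower, without the third 3 higher and 2 lower, and without the third knockout array 2 higher and 2 lower. After median centring 4 were higher and 1 lower. Over all probe sets centring turned the split from 801 higher and 1038 lower to 1133 higher and 729 lower.

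Which array was highest differed between the genes. The third knockout array was the highest of all 6 for 10 of the 35 genes, against 12.4% of all genes: Slc16a3, Hk2, Pfkl, Tpi1, Pgk1, Pgam1, Eno3, Pkm, Ldha and Pdk1. The second wild type array was highest for another 10, against 29.6% of all genes. The median of the aldolase and triose genes, set against the wild type mean of each gene, was 0.02, 0.32 and 0.54 in the knockout arrays and between -0.07 and 0.06 in wild type. For the 2 gluconeogenic genes it was -0.53, -0.30 and -0.44 in knockout and between -0.13 and 0.09 in wild type.

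Leaving out the first knockout array raised the count of genes with knockout wholly above wild type from 5 to 12 of 35. The same share of all genes was then 10.4%. The genes added were Slc16a3, Tpi1, Pgk1, Pgam1, Eno3, Pkm and Ldha. This array was singled out after its values were seen. With fewer arrays groups are separate more often, so each count is given with the share of all genes. Without the first wild type array the count was 9 (10.7% of all genes), without the second 6 (11.1%) and without the third 8 (12.1%). Without the second knockout array it stayed 5 (11.2%), and likewise without the third (10.2%). The count with knockout wholly below wild type was 2 on all arrays. It was 3 without the first wild type array (15.1% of all genes), 5 without the second (14.6%) and 4 without the third (22.0%). It was 4 without the first knockout array (15.0%), 2 without the second (16.5%) and 4 without the third (15.0%). In this direction the genes were thus separate no more often than all genes.

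Transcripts that tissue handling can induce include Fos, Jun and heat shock genes. Their median over 12 genes ranked the knockout arrays in the order of the aldolase and triose median. It ranked the wild type arrays in the opposite order. Single genes did not all have these orders. Fos had log2 signals of 9.98, 9.75 and 10.71 in the knockout arrays, and Jun 8.76, 8.85 and 8.34 in wild type. Of 12, 10 were above 0, and in 5 knockout was wholly above wild type, against 7.02% of all genes. The median log2 difference of the 12 was 0.85. Their median against the wild type mean was 0.52, 0.65 and 1.26 in the knockout arrays and -0.03, -0.34 and 0.30 in wild type. Hspa1a, a heat shock chaperone gene, was higher by 2.28 (SE 0.49), with an adjusted p of 0.355 in limma and 0.0488 with the trend. The summed signal of the 12 was 13020, 10740 and 16630 in wild type and 17130, 21310 and 29400 in knockout. Markers of immature blood progenitors split, with a median log2 difference of -0.03. Of 7, Kit, Myb and Cd44 had knockout wholly above wild type, against 7.02% of all genes, and the other 4 were below 0. The summed signal of the 7 was 3608 to 4423 in wild type and 6081 to 7336 in knockout. In the first knockout array Kit, Myb and Cd44 had 1148, 2497 and 2628 of the 7336. Of 8 erythroid markers 7 were below 0, with summed signals of 200900 to 212900 in wild type and 163000 to 210900 in knockout. Of 10 macrophage markers 6 were above 0 and 4 below, with a median of 0.23. No gene was wholly above wild type, and 1, Vcam1, was wholly below, with a log2 difference of -0.68. The share of all genes wholly below was 9.85%. The median of the 10 against the wild type mean was 0.03, 0.07 and 0.50 in the knockout arrays and -0.48, 0.19 and 0.29 in wild type. Marco, a macrophage receptor gene, had the highest difference of the 10, 0.75, with overlapping groups. Its log2 signals were 10.44, 11.02 and 11.03 in wild type and 10.98, 11.50 and 12.25 in knockout. The summed signal of the 10 was 18200 to 30070 in wild type and 23990 to 32300 in knockout. The medians of 2 further lists ranked the arrays of either genotype in the order of the aldolase and triose median. For the hypoxia list below they were -0.15, 0.02 and 0.27 in knockout and -0.02, 0.08 and -0.14 in wild type. For the muscle list, with 3 of 6 genes above the control level, they were -0.53, -0.10 and 0.00 in knockout. In wild type they were -0.07, 0.11 and -0.20. The part of any of these lists in the glycolytic differences was not tested.

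**Figure D3:**
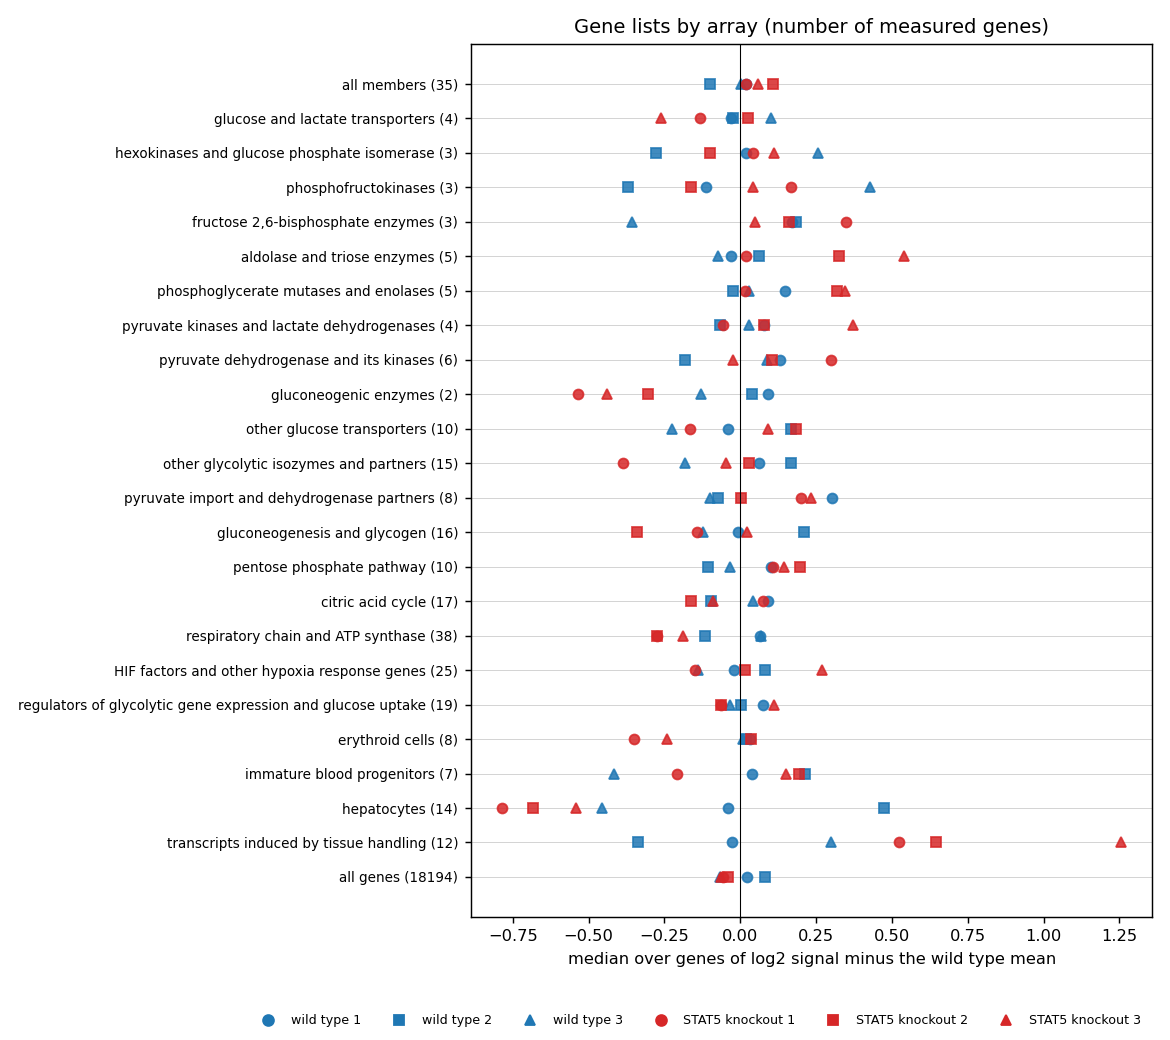
For each gene list, the median over its genes of log2 signal less the wild type mean, on each array, with the number of measured genes in brackets. Blue marks are wild type and red marks STAT5 knockout arrays, and the shape gives the replicate. The aldolase and triose genes reach 0.54 in the third knockout array, and the handling transcripts 1.26.

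In the neighbouring pathways, limma called no gene of any list below at an adjusted p under 0.05. The fit with the trend called 1, in the hypoxia list. The examples are those with the smallest p in each list unless stated otherwise. Of 10 other glucose transporters, 5 were above 0 and 5 below, with a median log2 difference of 0.02. Slc5a2, a sodium-coupled carrier, differed by 0.54 with overlapping groups. Slc5a1, its intestinal relative, was at least 1.12-fold brighter in wild type, where the knockout mean was under the control level.

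Of 15 other glycolytic isozymes and partners, 6 were above 0 and 9 below, with a median of -0.21. Minpp1, a phosphatase that removes phosphate from inositol phosphates and from 2,3-bisphosphoglycerate, had log2 signals of 11.09, 10.73 and 11.06 in wild type and 11.90, 11.69 and 11.61 in knockout. All 3 knockout arrays were above the wild type arrays, by 0.78 (SE 0.20), with an adjusted p of 0.404 in limma and 0.0651 with the trend. The testis isozyme Pgk2 was under the control level in both genotypes. Bsg, the chaperone that brings MCT1 and MCT4 to the membrane, was chosen after its values were seen. It had log2 signals of 14.66, 14.61 and 14.53 in wild type and 13.96, 14.33 and 14.05 in knockout, a difference of -0.49 (SE 0.18) with separate groups.

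Of 8 genes of pyruvate import and of the dehydrogenase complex, 7 were above 0, with a median of 0.15. Dlat, the E2 subunit, differed by 0.30 and Dld, the E3 subunit, by -0.18. Of 16 genes of gluconeogenesis and glycogen, 12 were below 0, with a median of -0.16. G6pc, the liver glucose 6-phosphatase, was at least 1.56-fold brighter in wild type, with the knockout mean under the control level. It is a gene of hepatocytes, whose markers were lower as given above. The part of hepatocyte RNA in the G6pc difference was not tested. Pgm2l1, a phosphoglucomutase relative, differed by 0.44 with separate groups.

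The pentose phosphate pathway, which makes NADPH and ribose from glucose 6-phosphate, had 7 of 10 genes above 0 and a median of 0.16. In 3 of them knockout was wholly above wild type, against 7.02% of all genes, and in none wholly below. Rpia, ribose 5-phosphate isomerase, had log2 signals of 11.48, 11.01 and 10.86 in wild type and 11.91, 11.83 and 11.93 in knockout, a difference of 0.77 (SE 0.22). Tkt, transketolase, had 13.97, 13.61 and 14.02 in wild type and 14.21, 14.27 and 14.59 in knockout, a difference of 0.49 (SE 0.21). Neither passed the test.

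In the citric acid cycle 8 of 17 genes were above 0 and 9 below, with a median of -0.01. Sdhd, a membrane anchor of succinate dehydrogenase, differed by -0.46, and Suclg2, a succinyl-CoA ligase subunit, by 0.35, both with separate groups. The respiratory chain and ATP synthase list had 33 of 38 genes below 0 and a median of -0.25, against -0.08 over all genes. In 18 of the 38 knockout was wholly below wild type, against 9.85% of all genes. Cox7a2, a cytochrome oxidase subunit, differed by -0.52 and Atp5b, the catalytic ATP synthase subunit, by -0.46. After median centring 27 were below 0, the median was -0.14, and 4 had knockout wholly below wild type, where 6.64% of all genes did. After quantile normalization 33 of the 38 were below 0, the median was -0.24, and 20 had knockout wholly below wild type. The count of separate genes in this list thus fell with median centring but not with quantile normalization.

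Of 25 HIF factors and other hypoxia response genes, 14 were above 0 and 11 below, with a median of 0.04. In 2 knockout was wholly above wild type, against 7.02% of all genes, and in 3 wholly below, against 9.85%. Kdm3a, a hypoxia-induced histone demethylase, had log2 signals of 10.43, 10.18 and 10.09 in wild type and 11.36, 11.20 and 11.32 in knockout. It was higher by 1.06 (SE 0.18), with an adjusted p of 0.252 in limma, and it passed with the trend at an adjusted p of 0.0148. P4ha1, a collagen prolyl hydroxylase, had 7.97, 6.87 and 7.95 in wild type and 9.07, 9.39 and 9.74 in knockout. Its difference of 1.80 (SE 0.37) had an adjusted p of 0.341 in limma and 0.0631 with the trend.

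Of 19 regulators of glycolytic genes and glucose uptake, 9 were above 0 and 10 below, with a median of 0.00. Myc had log2 signals of 9.31, 8.74 and 8.80 in wild type and 10.25, 9.95 and 9.97 in knockout, a difference of 1.10 (SE 0.23). Its adjusted p was 0.346 in limma and 0.0613 with the trend. Prkaa1, a catalytic subunit of the energy sensor AMPK, differed by 0.75 (SE 0.18). Txnip, an inhibitor of glucose uptake, was chosen after its values were seen and differed by 0.70 (SE 0.17). All 3 had separate groups.

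**Figure D4:**
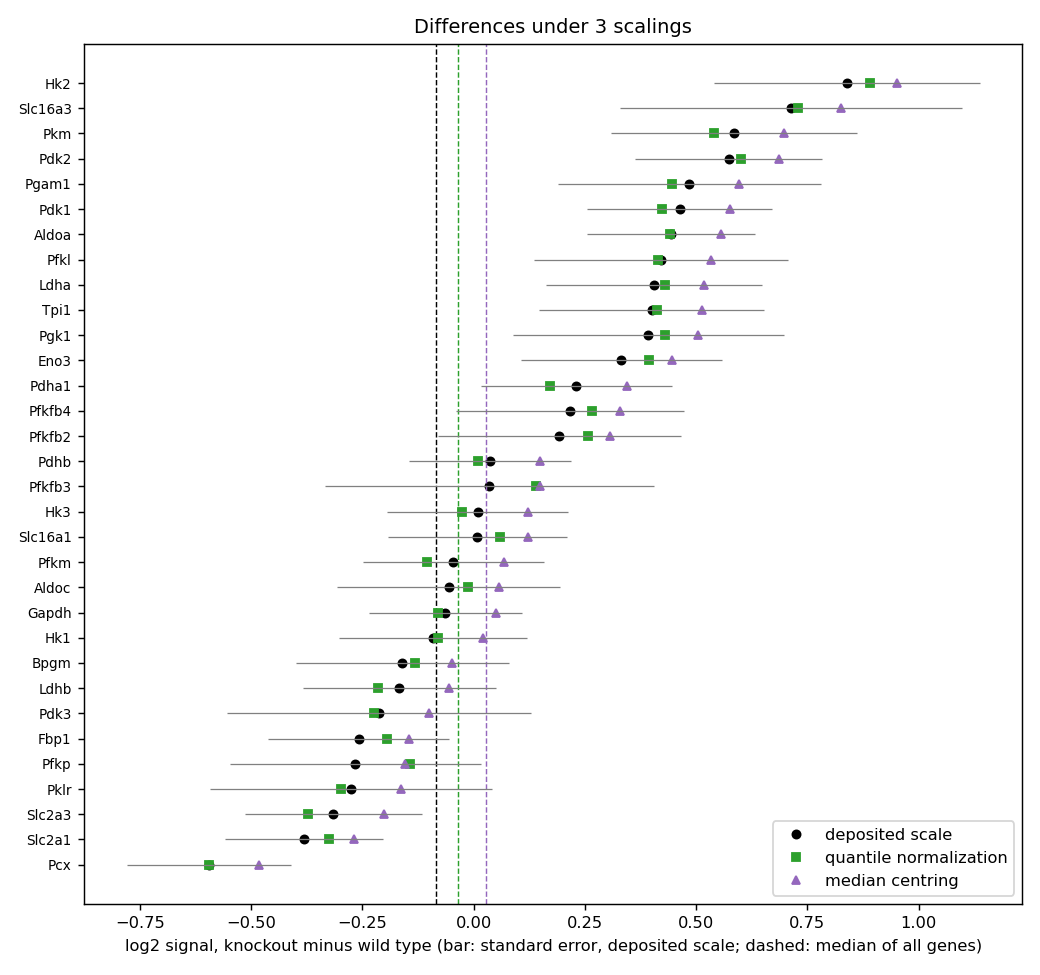
Log2 difference, STAT5 knockout minus wild type, for the 32 genes that were above the control level in either genotype, ordered by the difference on the deposited scale. Circles are the deposited scale with its standard error as a bar, squares are after quantile normalization, triangles after median centring, and the dashed lines are the medians of all genes under each. Hk2 is at the top at 0.84 and Pcx at the bottom at -0.59 on the deposited scale, and genes near 0 such as Hk1, Pfkm, Aldoc and Gapdh change sign with median centring.

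Agreement between probe sets of a gene varied. Among the 35 genes, 17 had over 1 probe set above the control level. In 13 of these all such probe sets gave the same sign, and in 4, Hk1, Gapdh, Ldhb and Pdhb, they gave both. Of their 65 probe sets above the control level, 11 had knockout wholly above wild type, as did 10.2% of all 21079 such probe sets. Another 10 had it wholly below, as did 10.3%. Probe sets of 1 gene are not independent: 5 of the 11 were of Aldoa, and of the 10, 5 were of Pcx and 3 of Slc2a1. These were the genes with over 1 probe set above the control level in which all such probe sets had separate groups.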

How the data were processed

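The table deposited by the authors holds 1 intensity per probe set and array on a linear scale, called signal here, for 45101 probe sets. On every array the mean, trimmed by 2% at either end, equals 500. RMA and Partek are named, without versions, in the submitters' processing notes, and the method behind that scaling is not stated in the labels. Signals were log2 transformed with no pseudocount. The sample titles gave each array's group and replicate number, and replicates are separate pools of embryos.

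The platform annotation paired 34958 of them with a single symbol and 932 with several, and 9160 with no symbol were not named. Of 64 control probe sets, the 13 paired with a mouse gene were kept and the others left out. Symbols were checked by Entrez ID against RefSeq (34754 matched, 0 changed). The main test was limma 3.58.1 (R 4.3.3, lmFit and eBayes) on all 6 arrays, with Benjamini-Hochberg adjustment over all genes and a threshold of 0.05. A gene with 1 genotype's mean under the control level gets only an "at least" fold, its dim values being raised to that level. The labels do not say whether the bacterial control transcripts were added to the samples. Every member is named. Values on each array are given for members with separate groups and the best known of each role, and further ones were added for description. From each pathway list the genes with the smallest p are named. The members and lists were chosen with earlier results of these data known. The number of arrays limits the precision.

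Same-numbered arrays of the genotypes had deviations that correlated at 0.023, 0.0414 and 0.0372 over all genes, and at 0.165, 0.123 and 0.104 over the brighter 50% of genes. The labels do not say what a number marks, and the fit without it as a block was kept. Alternatives were median centring, quantile normalization, the trend, the methods' t-test with adjustment, dropping the dimmer 50% of genes, 32 added to linear signals, averaging a gene's probe sets, leaving out _x_at, _s_at and _a_at probe sets, the replicate block and leaving out each array. Using the dimmest probe set above the control level, and leaving out dim members, were chosen after seeing the data.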

Additional observations from a re-analysis of the deposited data

How the results depend on the processing

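No gene of the list was called in any of the 16 settings run. Over all genes the main test called 8. Median centring called 3, quantile normalization 15, the trend 80, the methods' t-test with adjustment 4, dropping the dimmer 50% of genes 53 and leaving out _x_at, _s_at and _a_at probe sets 3. Leaving out 1 array gave 0 each time, with 1276 to 2080 genes at an unadjusted p under 0.05. The median difference of the 35 genes was 0.04, 0.15 with median centring and -0.01 to 0.11 when 1 array was left out. The 5 genes wholly above wild type (7.02% of all genes) became 7 with median centring (9.01%). The count was 5 to 12 without 1 array (10.2% to 12.1%). Without _x_at, _s_at and _a_at probe sets only 28 of the 35 genes were left, and Aldoa was not among them. Of these 28, 3 were wholly above wild type, against 6.70% of all genes left. The 2 wholly below became 2 to 5 without 1 array (14.6% to 22.0%), and the 6 probe sets that met the submitters' criterion became 1 to 12. With the dimmest probe set above the control level, available for 32 genes, 4 genes were wholly above and 3 wholly below. The share of all genes was not computed for this setting, so these counts cannot be set against the others.

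Of 408 recomputed differences of single genes, 29 changed sign, and 25 genes had no change. Median centring gave 0.0211 for Hk1, 0.0674 for Pfkm, 0.0564 for Aldoc and 0.0493 for Gapdh, and quantile normalization -0.0267 for Hk3. The mean of all probe sets gave -0.209 for Pfkfb2, -0.0849 for Pfkfb3, 0.0505 for Gapdh, 0.0128 for Ldhb and -0.363 for Pdhb. Leaving out _x_at, _s_at and _a_at probe sets gave -0.205 for Pfkfb3. The remaining sign changes came from leaving out 1 array. The differences then ranged from -0.123 to 0.0845 for Slc16a1, -0.231 to 0.0389 for Hk1, -0.067 to 0.157 for Hk3, -0.152 to 0.0748 for Pfkm, -0.209 to 0.353 for Pfkfb3, -0.22 to 0.11 for Aldoc, -0.125 to 0.0124 for Gapdh and -0.0353 to 0.119 for Pdhb. Median centring adds the same amount to all genes of an array, and the cause of the other changes was not tested.

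With the replicate number as a block, 0 genes were called over all genes (1566 at an unadjusted p under 0.05) and 0 of the 35, with Hk2 and Pcx at an unadjusted p under 0.05. The numbers are not known to pair the pools, although each array correlated best with the array of its own number, over all genes and over the brighter 50% of genes.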
